A study of Mus musculus with 12 samples.

Results

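NF-kB is a family of dimeric transcription factors built from proteins that share a Rel homology domain, and the IkB proteins bind those dimers through ankyrin repeats. The genes described here were 9 members of that system: the subunit genes Rel, Rela, Relb and Nfkb2, the cytoplasmic inhibitors Nfkbia, Nfkbib and Nfkbie, and the nuclear IkB proteins Nfkbiz and Bcl3. They were chosen by gene symbol, as every probe set whose only symbol in the platform annotation was one of these names. This gave 18 of the 45101 probe sets and 9 of the 18193 genes with a symbol of their own. All 9 genes and all 18 probe sets passed the filter on dim signals, which left 12791 genes for testing.

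The 12 arrays were Affymetrix 3′ expression arrays of dendritic cells taken from lymph nodes of C57BL/6 mice. Mice carried either the WT label or the p38a-knockout label, p38a being a stress-activated kinase encoded by Mapk14. Cells of both labels were cultured and given Pam3CSK4, a synthetic lipopeptide that activates TLR2, at a labelled 1 mg/ml. RNA was taken 0, 2 or 4 h later, with 2 arrays, A and B, in each of the 6 groups of label and time. The 0 h arrays are labelled as not activated, and no unactivated arrays at 2 or 4 h were analysed here, so that the ligand and the time in culture cannot be told apart. The sources used here give neither the promoter or Cre line behind the knockout, nor the part of the gene deleted, nor the age of the mice, nor whether A and B are separate mice, separate cultures or the same material. The p-values therefore measure only the spread between these arrays, which may be technical.

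As background, an unstimulated cell holds most NF-kB dimers in the cytosol, bound to an IkB protein. Signals from Toll-like receptors pass through MYD88, IRAK and TRAF proteins to the IkB kinase complex, which marks the IkB protein for destruction and frees the dimer to enter the nucleus. The freed dimers switch on Nfkbia, so that the inhibitor is made again and closes the loop. IkB-zeta, the product of Nfkbiz, and BCL-3 act in the nucleus instead, where they bind DNA-bound dimers and help or hinder transcription of particular genes. In dendritic cells, RelB is known as a factor of maturation, and c-Rel, the product of Rel, as a regulator of cytokine genes.

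The promoter sequence of the members is shown because several of these genes are textbook targets of the factor they encode or inhibit. RefSeq promoter windows of 250 bases before the annotated start (build GRCm38.p6) were found for 7 of the 9 members, Relb and Nfkbiz not being among them. A strict kappa B motif was searched on both strands: GGG, then any pair of bases, then TTTCC. It lay in a window of 3 of the 7 genes, Nfkbia, Rel and Nfkb2, and in 1.654% of the 27025 genes with such a window. Capitals mark that match in the windows below, and where the match is on the other strand they show its reverse complement.
Nfkbia, chr12:55492648-55492897, minus strand: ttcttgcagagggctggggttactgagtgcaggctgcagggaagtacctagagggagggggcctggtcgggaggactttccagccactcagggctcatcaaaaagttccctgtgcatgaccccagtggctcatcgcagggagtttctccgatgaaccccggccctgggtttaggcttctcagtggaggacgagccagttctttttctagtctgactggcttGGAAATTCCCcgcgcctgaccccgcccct
Rel, chr11:23770970-23771219, minus strand: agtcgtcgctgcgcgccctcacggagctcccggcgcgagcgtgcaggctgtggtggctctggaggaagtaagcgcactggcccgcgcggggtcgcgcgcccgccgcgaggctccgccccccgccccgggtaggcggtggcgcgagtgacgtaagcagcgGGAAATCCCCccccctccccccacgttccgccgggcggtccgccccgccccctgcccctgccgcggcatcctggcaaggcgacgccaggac
Nfkb2, chr19:46304487-46304736, plus strand: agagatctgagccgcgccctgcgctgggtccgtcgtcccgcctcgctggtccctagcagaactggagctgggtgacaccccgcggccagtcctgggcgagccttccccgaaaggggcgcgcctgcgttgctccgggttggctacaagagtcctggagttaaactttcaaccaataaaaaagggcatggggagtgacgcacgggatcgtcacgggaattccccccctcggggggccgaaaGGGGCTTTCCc

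Read on the strand that carries it, the match was GGGAATTTCC in the Nfkbia window, GGGGATTTCC in the Rel window and GGGGCTTTCC in the Nfkb2 window. Their leftmost bases as printed lay 29, 91 and 11 bases before the start. Nfkb2 has 3 annotated windows, and another of them holds GGGACTTTCC at 225 bases before its start. A looser motif, GGG, any 5 bases and CC, which contains the strict one as a special case, lay in 6 of the 7 genes, all but Nfkbib. It lay in 48.65% of all genes with a window, so its presence is common. A match is a description of letters in these windows and not evidence of binding. Of the 3 genes with the strict motif, Nfkbia was called higher at 2 h and 4 h in both labels and Nfkb2 in p38a-knockout arrays, with its other probe set called in both labels. Rel was called at neither time against 0 h, and no test of a difference between these genes was made.

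Levels are given as log2 of the signal plus 16, after the 12 arrays were brought to 1 distribution by quantile normalization, and differences are on the same log2 scale with the standard error (SE) of the fit over all arrays. A gene is called changed where its limma adjusted p is under 0.05 over the 12791 genes tested. On the deposited scale, trimmed mean signals of the arrays ran from 66.6 to 119. On the normalized log2 scale, Pearson correlations between the arrays of a group ran from 0.987 to 0.990, against at most 0.984 to 0.989 with an array of another group. Normalization matters here because the median of all genes at 2 h against 0 h shifted by -0.35 in WT and -0.41 in p38a-knockout arrays on the deposited scale. After quantile normalization these medians were -0.05 and -0.06, and directions below are relative to that. The normalization also set the split of calls: at 2 h in WT, 1079 genes were higher and 1467 lower after it, and 269 higher and 2020 lower on the deposited scale. The same pairs of counts at 2 h in p38a-knockout arrays were 1004 and 1499 against 195 and 3217. At 4 h they were 1063 and 1267 against 251 and 581 in WT, and 926 and 1389 against 189 and 664 in p38a-knockout arrays. Between labels over all times, 794 genes were higher and 548 lower in p38a-knockout arrays, against 49 and 488 on the deposited scale. The median of all genes in that comparison was 0.03 after normalization and -0.12 on the deposited scale. On that scale, 27 of the 35 calls made for the members over the 12 comparisons were lost or turned. The 8 kept were Nfkbiz at 2 h and 4 h in each label, Relb at 2 h in p38a-knockout arrays, and Rel, Relb and Nfkbib between labels over all times. The members' median at 2 h was then 0.08 in WT and 0.15 in p38a-knockout arrays, beside -0.35 and -0.41 over all genes. The 10 dendritic cell markers, Relb among them, all passed the filter. Of the 6 probe sets of Mapk14, 3 passed it and none of these was called lower in p38a-knockout arrays. The lowest value, -0.20 in 1 of them at 2 h, did not pass the test (adjusted p = 0.805). The brightest was higher by 0.31 ± 0.08 over all times (adjusted p = 0.0258 among 27003 probe sets). Where these probes lie relative to the deleted part is not given in the sources used here, so that every direction by genotype below is one between the libraries labelled p38a-knockout and WT.

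**Figure D1:**
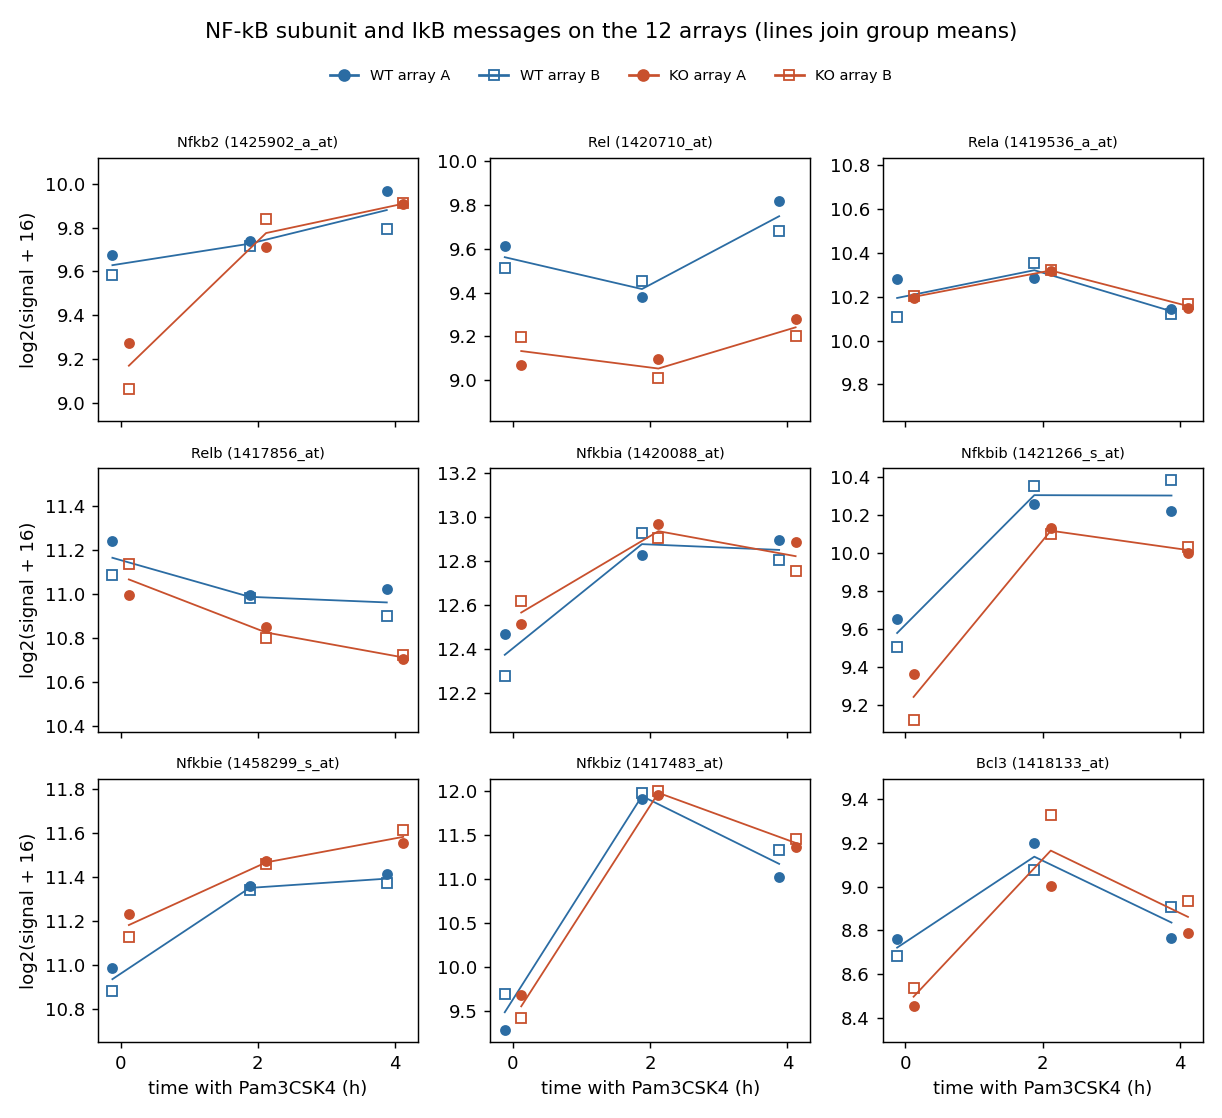
Level of each of the 9 genes on the 12 arrays, as log2(signal + 16) on the vertical axis, against hours after Pam3CSK4. Blue marks WT and orange p38a-knockout, filled circles are arrays A, open squares arrays B, lines join group means, and each panel has its own vertical range. Nfkbiz moved from between 9.28 and 9.69 at 0 h to between 11.91 and 12.01 at 2 h in both labels, and the orange Rel values lie below all blue ones.

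After Pam3CSK4, the gene of a nuclear IkB protein, Nfkbiz, rose most among the members, and the 3 inhibitor genes rose with it. Of the subunit genes, none was called against 0 h in WT arrays. In p38a-knockout arrays Nfkb2 was called higher and Relb lower at both times, and Rel and Rela were not called. In WT arrays at 2 h, 5 of the 9 members were higher than at 0 h and none was lower. Among all genes, 8.44% were called higher and 11.5% lower in this comparison. The median change of the members was 0.41, against -0.05 over all genes tested. At 4 h, 4 members exceeded their 0 h level in WT arrays and none was lower, with 8.31% of all genes higher and 9.91% lower. In p38a-knockout arrays 6 members were higher and 1 lower at 2 h (7.85% of genes higher, 11.7% lower), and the counts at 4 h were again 6 and 1 (7.24% and 10.9%). The median change of the members in p38a-knockout arrays was 0.37 at 2 h and 0.36 at 4 h, against -0.06 and -0.05 over all genes. Each label's response was measured against its own 0 h arrays. In a fit whose spread did not depend on the level, the 2 h calls for Bcl3 in WT (0.0524) and for Relb (0.131) and Nfkbie (0.0563) in p38a-knockout arrays were lost, as were the p38a-knockout 4 h calls for Nfkbia (0.142) and Bcl3 (0.0879).

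**Figure D2:**
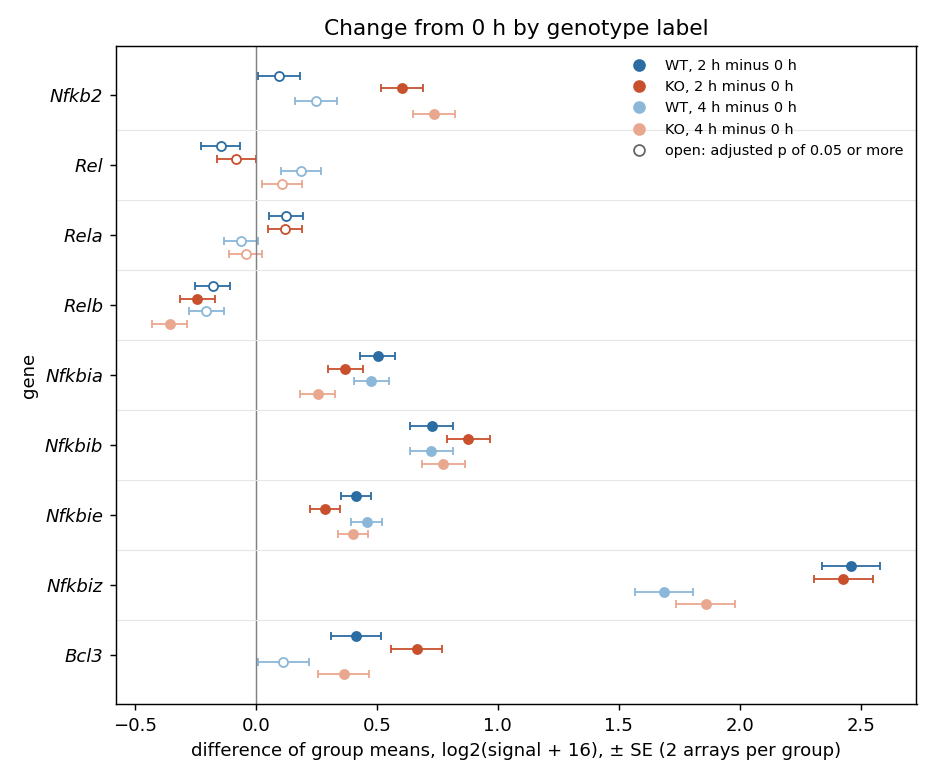
Change of each gene from 0 h to 2 h and from 0 h to 4 h, in log2 units with the standard error, in WT (blue) and p38a-knockout (orange) arrays. Filled points have a limma adjusted p under 0.05 and open points do not. Nfkbiz stands at 2.46 and 2.43 at 2 h, and the other members lie between -0.24 and 0.88 at that time.

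Among the subunits, Rela encodes the transactivating subunit p65 of the classical dimer. Its level in WT arrays A and B was 10.28 and 10.11 before the ligand, 10.29 and 10.35 after 2 h, and 10.14 and 10.12 after 4 h. The p38a-knockout arrays held 10.19 and 10.20, 10.31 and 10.32, and 10.15 and 10.17, in the same order. All 12 values lie within 10.11 to 10.35, the narrowest range of the 9 genes. The change at 2 h was 0.13 ± 0.07 in WT (adjusted p = 0.242) and 0.12 ± 0.07 in p38a-knockout arrays (adjusted p = 0.262). The difference between labels over all times was 0.01, with a 95% interval of -0.08 to 0.09.

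Rel encodes c-Rel, the subunit tied to cytokine genes in lymphoid and myeloid cells. The WT arrays read 9.61 and 9.51 before the ligand, 9.38 and 9.45 after 2 h, and 9.82 and 9.68 after 4 h. The p38a-knockout arrays read 9.07 and 9.20, then 9.10 and 9.01, then 9.28 and 9.20. Every p38a-knockout array was thus below every WT array, and within each label the 4 h arrays were the highest. Against 0 h, Rel did not pass the test at either time in either label; the differences at 2 h were -0.15 ± 0.08 in WT and -0.08 ± 0.08 in p38a-knockout arrays. From 2 h to 4 h it rose by 0.33 ± 0.08 in WT arrays (adjusted p = 0.0155), and this call was lost without WT 2 h array A (0.121), WT 2 h array B (0.0523) or WT 4 h array A (0.159). The same step in p38a-knockout arrays was 0.19 ± 0.08 (adjusted p = 0.149).

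Relb encodes RelB, which pairs with the product of Nfkb2 in the alternative pathway. Its WT values were 11.24 and 11.09 before the ligand, 11.00 and 10.98 after 2 h, and 11.02 and 10.90 after 4 h. Its p38a-knockout values were 11.00 and 11.14, then 10.85 and 10.80, then 10.70 and 10.72. In each label both 0 h arrays lay above all later ones. Relb was the only member called lower than at 0 h, and the call was made in p38a-knockout arrays: by 0.24 ± 0.07 at 2 h (adjusted p = 0.0267) and by 0.36 ± 0.07 at 4 h (adjusted p = 0.00223). In WT arrays the differences were -0.18 ± 0.07 (adjusted p = 0.1) and -0.20 ± 0.07 (adjusted p = 0.063), and the difference between the labels' responses did not pass the test at 2 h (-0.06, adjusted p = 0.969) or 4 h (-0.15, adjusted p = 0.92). The 2 h call was lost without p38a-knockout 0 h array B (0.21), 2 h array A (0.0687) or 2 h array B (0.137), and when arrays were scaled by their trimmed means (0.22).

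Nfkb2 encodes the precursor whose processed form partners RelB. The brighter of its 2 probe sets read 9.67 and 9.58 before the ligand, 9.74 and 9.71 after 2 h, and 9.97 and 9.79 after 4 h in WT arrays. Its p38a-knockout readings were 9.28 and 9.07, then 9.71 and 9.84, then 9.91 and 9.91. The p38a-knockout arrays thus started below WT and overlapped them at both later times. Nfkb2 rose 1.52-fold at 2 h (0.60 ± 0.09, adjusted p = 0.000117) and 1.67-fold at 4 h (0.74 ± 0.09, adjusted p = 1.68e-05) in p38a-knockout arrays. In WT arrays the change was 0.10 ± 0.09 at 2 h (adjusted p = 0.506) and 0.25 ± 0.09 at 4 h (adjusted p = 0.0575).

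The response of Nfkb2 was the one that differed most between the labels among the members, yet it did not pass the test of that difference. It was larger in p38a-knockout arrays by 0.51 ± 0.12 at 2 h (unadjusted p = 0.000875 from limma, adjusted p = 0.32) and by 0.49 ± 0.12 at 4 h (adjusted p = 0.371). The other probe set did not show it: there the response was 0.35 in WT and 0.40 in p38a-knockout arrays at 2 h, and 0.33 and 0.38 at 4 h, each called at the level of probe sets. Over all members, no response differed between labels after adjustment at 2 h or 4 h. By limma at an unadjusted p under 0.05, 1 member differed at 2 h, Nfkb2, and 2 at 4 h, Nfkb2 and Nfkbia. Among all genes, 0.0313% passed the adjusted test at 2 h (4 genes, with 754 at an unadjusted p under 0.05) and 0.0469% at 4 h (6 genes, with 776).

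By the probe set used for each gene, the genes of the 3 cytoplasmic inhibitors rose in both labels at both times. Nfkbia, which encodes IkB-alpha, read 12.47 and 12.28 before the ligand, 12.83 and 12.93 after 2 h, and 12.89 and 12.81 after 4 h in WT arrays. Its p38a-knockout values were 12.51 and 12.62, 12.97 and 12.90, and 12.89 and 12.76. No array at 2 h or 4 h was below an array at 0 h. It rose 1.42-fold in WT at 2 h (0.50 ± 0.07, adjusted p = 0.000101) and stayed at 0.48 ± 0.07 above 0 h at 4 h (adjusted p = 0.000178). In p38a-knockout arrays it rose by 0.37 ± 0.07 at 2 h (adjusted p = 0.00175) and by 0.26 ± 0.07 at 4 h (adjusted p = 0.0208). The last call was lost without p38a-knockout 0 h array A (0.161) or 4 h array A (0.196), and with no filter on dim genes (0.0649).

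The size of the Nfkbia response depended on the probe set. Of its 5 probe sets, all 5 were higher at 2 h in each label, by 0.32 to 1.07 in WT and 0.32 to 0.92 in p38a-knockout arrays. At 4 h only 3 of the 5 were called higher in WT arrays, and 4 in p38a-knockout arrays. Changes at 4 h ran from 0.17 to 0.81 in WT and from 0.20 to 0.78 in p38a-knockout arrays. The smallest change in each label was in 1 bright probe set, called in neither (adjusted p = 0.214 in WT and 0.118 in p38a-knockout arrays). The largest change in WT, 1.07 (adjusted p = 7.01e-08 among probe sets), was in a probe set that started at 11.73 and 11.60 and reached 12.74 on both arrays. The brightest probe set, used for the gene, had deposited signals of 5445 to 8091, while the highest signals on the arrays were 10879 to 12902. The probe set with the largest change fell again from 2 h to 4 h, by 0.26 in WT (adjusted p = 0.0372) and by 0.27 in p38a-knockout arrays (adjusted p = 0.0275), whereas the brightest one did not pass that test. None of the 5 differed between labels over all times.

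Nfkbib, which encodes IkB-beta, went in WT arrays from 9.65 and 9.50 to 10.26 and 10.35 after 2 h, and was at 10.22 and 10.38 after 4 h. The p38a-knockout arrays went from 9.36 and 9.12 to 10.13 and 10.10, and then 10.00 and 10.03. The arrays at 2 h and 4 h were above all 0 h arrays and close to each other. The rise was 1.66-fold in WT at 2 h (0.73 ± 0.09, adjusted p = 2.02e-05) and 1.84-fold in p38a-knockout arrays (0.88 ± 0.09, adjusted p = 2.97e-06). At 4 h it was 0.73 ± 0.09 (adjusted p = 2.22e-05) and 0.78 ± 0.09 (adjusted p = 1.28e-05). Its dimmer probe set had low mean signals at 0 h, 38 in WT and 31 in p38a-knockout arrays. It rose by 1.25 in WT and 1.23 in p38a-knockout arrays at 2 h. That probe set then fell by 0.65 in WT (adjusted p = 0.0472 among probe sets) and by 0.68 in p38a-knockout arrays (adjusted p = 0.0314), a fall that the brighter one did not show. At 4 h against 0 h the dimmer one stood at 0.61 in WT (adjusted p = 0.0413) and 0.54 in p38a-knockout arrays, not called (adjusted p = 0.0688).

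Nfkbie, which encodes IkB-epsilon, read 10.99 and 10.88 before the ligand, 11.36 and 11.34 after 2 h, and 11.41 and 11.37 after 4 h in WT arrays. Its p38a-knockout readings were 11.23 and 11.13, 11.47 and 11.46, and 11.55 and 11.61. Both labels were higher at both later times, with the highest group mean at 4 h. The rise at 2 h was 1.33-fold in WT (0.42 ± 0.06, adjusted p = 0.000152) and 0.29 ± 0.06 in p38a-knockout arrays (adjusted p = 0.00396, and 0.05 without p38a-knockout 0 h array B). At 4 h it was 0.46 ± 0.06 (adjusted p = 6.3e-05) and 0.40 ± 0.06 (adjusted p = 0.000228). The other Nfkbie probe set rose by 0.45 and 0.46 at 2 h, and its 4 h changes were 0.41 and 0.58, all called. On the deposited scale the 2 h difference in p38a-knockout arrays turned to -0.0273.

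**Figure D3:**
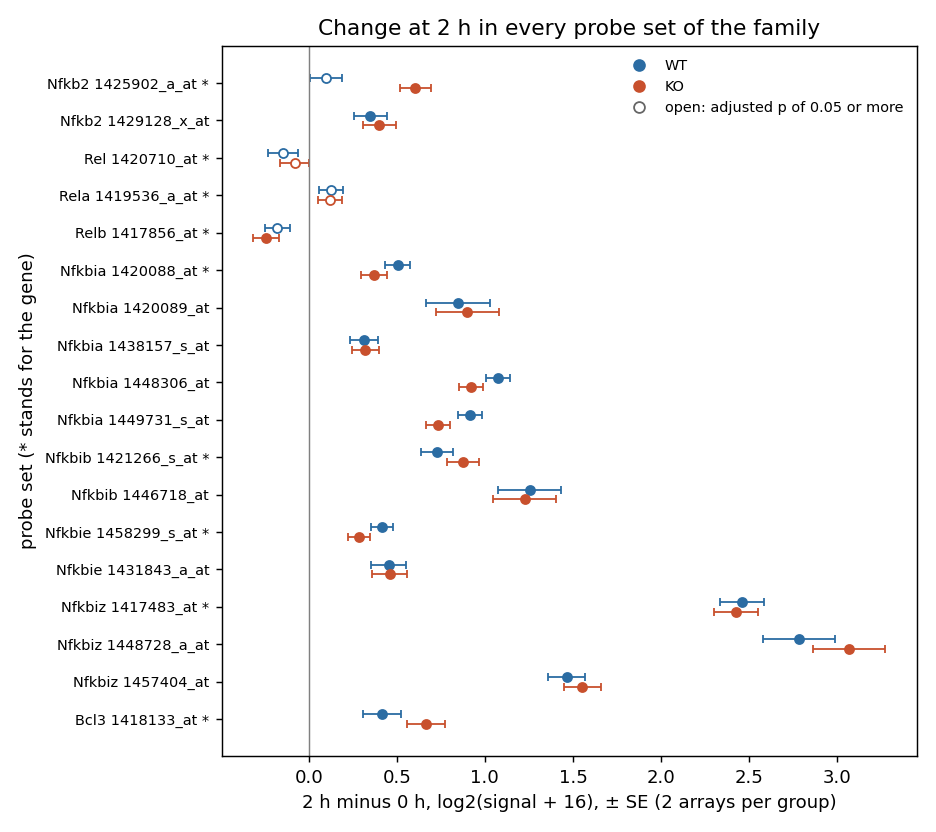
Change from 0 h to 2 h in all 18 probe sets of the 9 genes, in log2 units with the standard error, in WT (blue) and p38a-knockout (orange) arrays; an asterisk marks the probe set that stands for the gene. The 3 probe sets of Nfkbiz rose by 1.46 to 2.78 in WT, and the 5 of Nfkbia by 0.32 to 1.07.

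Nfkbiz encodes IkB-zeta, which is made on stimulation and is needed for a class of late cytokine genes. The WT arrays read 9.28 and 9.69 before the ligand, 11.91 and 11.99 after 2 h, and 11.02 and 11.33 after 4 h. The p38a-knockout arrays read 9.69 and 9.42, then 11.96 and 12.01, then 11.37 and 11.46. The 2 h arrays of both labels were the highest, the 4 h arrays lay between, and the labels overlapped at 0 h and 2 h. The rise at 2 h was 5.50-fold in WT (2.46 ± 0.12, adjusted p = 5.5e-10) and 5.38-fold in p38a-knockout arrays (2.43 ± 0.12, adjusted p = 7.97e-10). From 2 h to 4 h Nfkbiz fell by 0.77 ± 0.12 in WT (adjusted p = 0.000617) and by 0.57 ± 0.12 in p38a-knockout arrays (adjusted p = 0.0053). At 4 h it was still 3.22-fold (adjusted p = 7.04e-08) and 3.63-fold (adjusted p = 2.86e-08) above 0 h. All 3 probe sets rose at 2 h and fell from 2 h to 4 h in each label. The difference between the labels' 2 h responses was -0.03, with a 95% interval of -0.40 to 0.33.

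Bcl3 encodes BCL-3, a nuclear partner of NF-kB homodimers. Its WT values were 8.76 and 8.68 before the ligand, 9.20 and 9.07 after 2 h, and 8.76 and 8.91 after 4 h. Its p38a-knockout values were 8.46 and 8.54, 9.003 and 9.32, and 8.79 and 8.94. The 2 h arrays were the highest in each label, and in WT the lower 4 h array was level with the higher 0 h array. Bcl3 rose at 2 h by 0.41 ± 0.11 in WT (adjusted p = 0.0104) and by 0.67 ± 0.11 in p38a-knockout arrays (adjusted p = 0.00029). At 4 h the change was 0.11 ± 0.11 in WT (adjusted p = 0.54) and 0.36 ± 0.11 in p38a-knockout arrays (adjusted p = 0.0241). The WT 2 h call was lost without WT 0 h array B (0.0687) or WT 2 h array A (0.094), and the p38a-knockout 4 h call without p38a-knockout 0 h array A (0.138), 0 h array B (0.0582) or 4 h array B (0.182). The difference between the labels' responses was 0.25 at both times (adjusted p = 0.875 and 0.907).

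Between 2 h and 4 h few members moved. In WT arrays Rel was higher and Nfkbiz lower at 4 h than at 2 h, with 5.32% of all genes higher and 5.75% lower. In p38a-knockout arrays Nfkbiz alone was called, lower, with 6.46% of genes higher and 7.25% lower. In a fit whose spread did not depend on the level, the calls for Rel in WT (0.0777) and for Nfkbiz in p38a-knockout arrays (0.0535) were lost. On the deposited scale both were lost as well, and so was the Nfkbiz call in WT (-0.64, adjusted p = 0.0905). The step for Bcl3 was -0.30 in both labels (adjusted p = 0.0841 in WT and 0.0713 in p38a-knockout arrays).

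Between labels, Rel was the member with the clearest difference, lower in p38a-knockout arrays at every time. It was lower by 0.43 ± 0.08 at 0 h (adjusted p = 0.00743), by 0.36 ± 0.08 at 2 h (adjusted p = 0.029) and by 0.51 ± 0.08 at 4 h (adjusted p = 0.00317). Over all times it was 1.35-fold lower (-0.43 ± 0.05, adjusted p = 1.79e-05), and the 6 p38a-knockout arrays, at 9.01 to 9.28, did not overlap the 6 WT arrays, at 9.38 to 9.82. Rel was the only one of the 9 members whose 6 arrays of one label did not overlap the 6 of the other. Among all genes tested, 0.485% were lower without overlap in p38a-knockout arrays and 0.868% higher without overlap, while 4.28% were called lower and 6.21% higher. The adjusted p over all times stayed under the threshold in each of 22 alternatives (at most 0.00255), the deposited scale included, where the difference was -0.65. On that scale the median of all genes was itself -0.12. Rel has 1 probe set, so the alternatives that changed the choice of probe sets used the same Rel values. The calls at single times were less firm, and among probe sets the one at 2 h was not made (adjusted p = 0.0528). That at 0 h was lost without p38a-knockout 0 h array A (0.0829) or WT 0 h array A (0.0618). That at 2 h was lost without any 1 of its 4 arrays (0.0798 to 0.206), and that at 4 h without p38a-knockout 4 h array B (0.0502) or WT 4 h array A (0.0564).

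The other differences between labels were smaller. At 0 h, 1 member was higher and 2 lower in p38a-knockout arrays, among 1.95% of all genes higher and 1.35% lower. Besides Rel these were Nfkb2, lower by 0.46 ± 0.09 (adjusted p = 0.00711), and Nfkbie, higher by 0.25 ± 0.06 (adjusted p = 0.0401). The call for Nfkb2 was lost without p38a-knockout 0 h array B (0.0992) or WT 0 h array A (0.0551), and its other probe set differed by -0.13 (adjusted p = 0.643). The other Nfkbie probe set differed by 0.12 at 0 h (adjusted p = 0.704), and the brighter one was not called among probe sets (0.0628). The gene's call was lost in 9 of 14 alternatives, among them no filter (0.0766), all probe sets averaged (0.271), only the groups compared (0.21), without p38a-knockout 0 h array A (0.256), 0 h array B (0.0567) or WT 0 h array B (0.309), and arrays scaled by their trimmed means (0.213). At 2 h Rel was the only member called, with 1.01% of genes higher and 1.29% lower, and the same held at 4 h, with 1.13% and 1.26%.

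Over all times, 1 member was called higher and 3 lower in p38a-knockout arrays, where 6.21% of all genes were higher and 4.28% lower. Besides Rel, Nfkbib was lower by 0.27 ± 0.05 (adjusted p = 0.00258) and Relb by 0.17 ± 0.04 (adjusted p = 0.014). Nfkbie was higher by 0.18 ± 0.04 (adjusted p = 0.00326). The dimmer probe set of Nfkbib differed by -0.23 (adjusted p = 0.235 among probe sets), and the other Nfkbie probe set by 0.18 (adjusted p = 0.0791). On the deposited scale Nfkbie turned to -0.05 (adjusted p = 0.859), while Relb and Nfkbib stayed lower. The median of all genes was also lower on that scale, at -0.12. In a fit whose spread did not depend on the level of the gene, the calls for Relb (0.113) and Nfkbie (0.0622) were lost, as were those between labels at single times for Rel (0.0647 to 0.145), Nfkb2 (0.0944) and Nfkbie (0.265). Nfkbiz differed between labels by 0.11 ± 0.07 over all times (adjusted p = 0.365), Bcl3 by -0.06 ± 0.06 (adjusted p = 0.643) and Nfkbia by 0.07 ± 0.04 (adjusted p = 0.312).

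**Figure D4:**
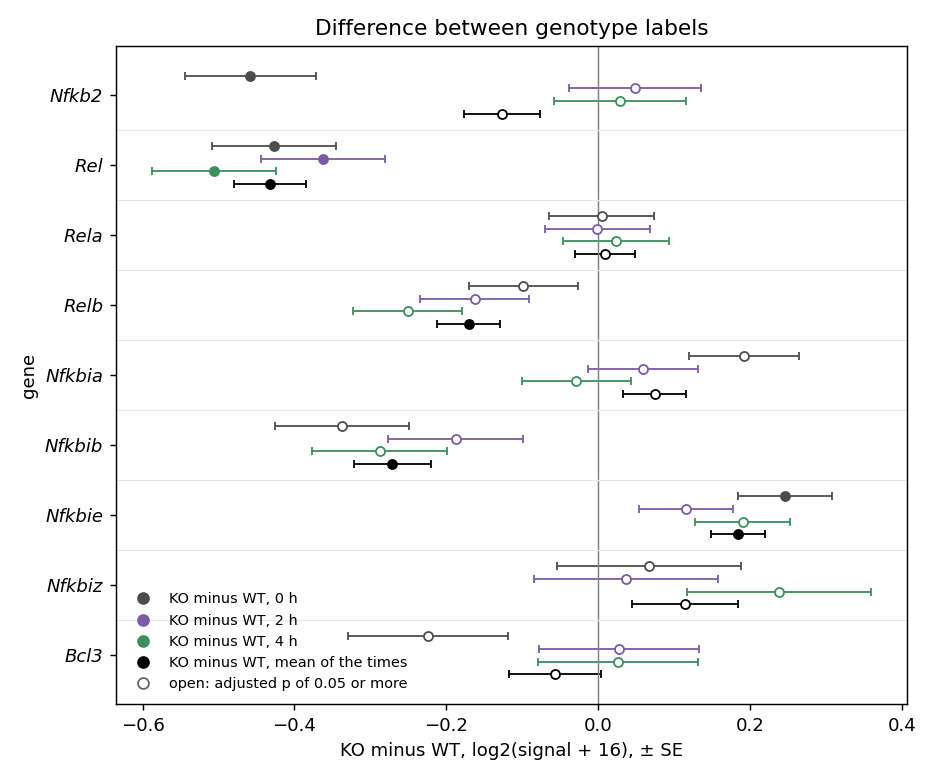
Difference between p38a-knockout and WT arrays (p38a-knockout minus WT) for each gene at 0, 2 and 4 h and over all times, in log2 units with the standard error; filled points have a limma adjusted p under 0.05. Rel lies between -0.51 and -0.36 at each time, and Rela between 0.00 and 0.02.

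Markers of other cells moved with the labels. The 6 measured macrophage and monocyte markers of 7 listed summed to signals of 1772 to 1850 in WT and 3153 to 3184 in p38a-knockout arrays at 0 h. At 2 h they summed to 1344 to 1417 and 2243 to 2366, and at 4 h to 1057 to 1208 and 2042 to 2181. Of these 6, 4 were higher in p38a-knockout arrays over all times: Lyz2 by 0.95, Adgre1 by 0.69, Csf1r by 0.49 and Fcgr1 by 0.36. Of 5 B cell markers tested, Cd79b was higher by 0.47, and Pax5 was below the filter; the sum at 0 h was 681 to 688 in WT and 865 to 943 in p38a-knockout arrays. Of 6 stroma markers, Pecam1 and Cdh5 were each higher by 0.33, and of 4 NK cell markers Gzmb was higher by 0.25 and Klrk1 lower by 0.23. None of 6 T cell and 4 neutrophil markers was called between labels over all times. Of the 10 dendritic cell markers, Itgax was higher by 0.50 and H2-Ab1 by 0.46, and Ccr7 and Relb were each lower by 0.17. The ratio of 3′ to 5′ Gapdh probe sets, a sign of RNA quality, was -0.39 to -0.24 (log2) in WT and -0.30 to -0.09 in p38a-knockout arrays. The same ratio for beta-actin was 0.134 to 0.220 in WT and 0.217 to 0.349 in p38a-knockout arrays, so that the labels barely overlapped. The part of these in the differences of Rel, Nfkb2, Nfkbib, Relb and Nfkbie between labels was not tested. Markers also moved with time, beside the members' responses. At 4 h against 0 h, macrophage and monocyte markers were called lower for 4 of 6 in WT and 3 of 6 in p38a-knockout arrays, and 1 was higher in each label. Of 4 neutrophil markers, 2 were higher in WT and 1 in p38a-knockout arrays, and 1 was higher at 2 h in WT. Their summed signal in WT was between 126 and 134 at 0 h and between 320 and 361 at 4 h, and in p38a-knockout arrays between 113 and 117 and between 309 and 336. Of 4 NK cell markers 2 were higher in each label, and of 6 T cell markers 2 were lower in WT and 1 in p38a-knockout arrays. Of 5 B cell markers, 1 was higher and 1 lower in WT and 2 were lower in p38a-knockout arrays, and 2 of 6 stroma markers were lower in the latter. Of the 10 dendritic cell markers, 2 were higher and 1 lower in WT, and 1 higher and 1 lower in p38a-knockout arrays, the lower one being Relb. At 2 h the counts of macrophage and monocyte markers called lower were 2 and 3, and no T cell or stroma marker was called. The part of these in the responses of the members was not tested. In such bulk samples, fewer cells of a type and less RNA per cell cannot be told apart.

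The kinases and adaptors upstream of the members were taken from a list of 27 genes, of which 20 were measured and tested. At 2 h in WT arrays 7 of the 20 were higher and 3 lower, and in p38a-knockout arrays 6 were higher and 1 lower. Among all genes, 8.44% were called higher and 11.5% lower in WT, and 7.85% and 11.7% in p38a-knockout arrays. The median change of the list was 0.13 and 0.14, against -0.05 and -0.06 over all genes. Tbk1, a kinase related to the IkB kinases, rose by 0.60 in WT and 0.63 in p38a-knockout arrays, and Myd88, the adaptor of TLR2, by 0.58 and 0.43. Ikbke rose by 1.13 in WT and 0.60 in p38a-knockout arrays, and Traf6 by 0.57 and 0.32. Irak1 was at -0.65 in WT, where it was called, and -0.24 in p38a-knockout arrays (adjusted p = 0.27), and Traf2 was at -0.49, called, and -0.32 (adjusted p = 0.0545). Bcl10 and Malt1 encode partners in a signalling complex that activates the IkB kinases. Bcl10 rose by 0.33 in WT and 0.46 in p38a-knockout arrays, and Malt1 was at -0.24 in WT (adjusted p = 0.0647) and rose by 0.38 in p38a-knockout arrays. None of these 2 h responses differed between labels after adjustment.

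The largest change of the list was in Map3k14, which encodes NIK, the kinase that triggers processing of the Nfkb2 product. It fell by 2.17 ± 0.11 in WT (adjusted p = 1.08e-09) and its change was -2.32 ± 0.11 in p38a-knockout arrays (adjusted p = 6.96e-10) at 2 h. It rose again from 2 h to 4 h by 0.83 in WT and 1.18 in p38a-knockout arrays, and at 4 h still stood at -1.33 and -1.14 against 0 h. The course of Map3k14, low at 2 h, was thus opposite to that of Nfkbiz in both labels. At 4 h against 0 h, 6 of the 20 genes were higher and 2 lower in WT arrays, and in p38a-knockout arrays 7 were higher and 2 lower. The shares of all genes were 8.31% higher and 9.91% lower in WT, and 7.24% and 10.9% in p38a-knockout arrays. Called higher in both labels were Ikbke (1.47 in WT and 1.41 in p38a-knockout arrays), Myd88 (0.48 and 0.45), Birc3 (0.36 and 0.39), Tab2 (0.32 and 0.27) and Tbk1 (0.30 and 0.38). Malt1 was at -0.17 in WT (adjusted p = 0.208) and called at 0.82 in p38a-knockout arrays. Irak1 was called at -0.60 in WT and stood at -0.09 in p38a-knockout arrays (adjusted p = 0.738), and Traf1 stood at -0.19 in WT (adjusted p = 0.0642) and was called at -0.21 in p38a-knockout arrays. From 2 h to 4 h, 2 rose and 1 fell in WT arrays, and 4 rose and 2 fell in p38a-knockout arrays. Over that step 5.32% of all genes were higher and 5.75% lower in WT, and 6.46% and 7.25% in p38a-knockout arrays.

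Between labels the upstream list held no gene that was higher in p38a-knockout arrays at any time or over all times. Of all genes, 6.21% were higher and 4.28% lower over all times. At single times 1.01% to 1.95% were higher and 1.26% to 1.35% lower. Over all times 4 of the 20 were lower: Birc2 by 0.39 ± 0.04 (adjusted p = 1.44e-05), Malt1 by 0.33 ± 0.05 (adjusted p = 0.000458), Map3k14 by 0.38 ± 0.07 (adjusted p = 0.00122) and Traf1 by 0.18 ± 0.04 (adjusted p = 0.008). Birc2 was lower at 0, 2 and 4 h, by 0.49, 0.33 and 0.36. Malt1, a paracaspase, was lower by 0.86 ± 0.09 at 0 h (adjusted p = 4.58e-05), and stood at -0.24 at 2 h and 0.13 at 4 h. Its 4 h response was larger in p38a-knockout arrays by 0.99 ± 0.12 (adjusted p = 0.005), which made it 1 of the 6 genes of the whole table to pass that test. The Malt1 call was lost on the deposited scale (adjusted p = 1), with all probe sets averaged (0.369), in a fit whose spread did not depend on the level (0.34), and without p38a-knockout 4 h array A (0.0599) or WT 4 h array A (0.0596). Requiring a log2 change of at least 1 as well also removed the call, as the change was 0.994. The change stayed between 0.67 and 1.02 in all alternatives.

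Other regulators of NF-kB were taken from a second list of 27, of which 22 were tested. At 2 h 4 rose and 3 fell in each label, with list medians of 0.04 in WT and -0.08 in p38a-knockout arrays. Among all genes, 8.44% were higher and 11.5% lower in WT, and 7.85% and 11.7% in p38a-knockout arrays. Tnfaip3, which encodes the deubiquitinase A20, rose by 2.01 ± 0.09 in WT and 1.73 ± 0.09 in p38a-knockout arrays. Tnip1, a partner of A20, rose by 1.17 and 1.03, and Nfkbid, which encodes another nuclear IkB protein, by 1.50 and 1.34. Rps6ka5, a kinase downstream of p38, rose by 0.55 and 0.53. The 3 that fell were Ep300 (-0.72 and -0.71), Crebbp (-0.40 and -0.47), both transcriptional coactivators, and Cyld (-0.41 and -0.43), a deubiquitinase. From 2 h to 4 h, Tnfaip3 fell by 0.83 and 0.82, Rps6ka5 by 0.99 and 0.82, Nfkbid by 1.11 and 0.95, and Tnip1 by 0.29 and 0.25 in WT and p38a-knockout arrays. The nuclear IkB genes Nfkbiz and Nfkbid thus both fell over that step.

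At 4 h against 0 h, Tnip1 rose by 0.88 in WT and 0.78 in p38a-knockout arrays, and Tnfaip3 by 1.18 and 0.92. These made 2 higher and 1 lower of the 22 in WT, the lower one being Rps6ka5 at -0.43, and 3 higher and none lower in p38a-knockout arrays, the other being Fbxw11 at 0.18. The shares of all genes were 8.31% higher and 9.91% lower in WT, and 7.24% and 10.9% in p38a-knockout arrays. Between labels 1 gene was lower at each time and none higher: Dusp1, a phosphatase that acts on p38 and other kinases of its family, at -0.48, -0.43 and -0.54 at 0, 2 and 4 h. Over all times 3 were higher, Nkiras1 by 0.38, Nkrf by 0.27 and Tnip1 by 0.13. The 2 lower ones were Dusp1, by 0.49 ± 0.04 (adjusted p = 7.69e-07), and Fbxw11, by 0.17. Of all genes, 6.21% were higher and 4.28% lower over all times. At single times 1.01% to 1.95% were higher and 1.26% to 1.35% lower.

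Genes known to need IkB-zeta in macrophages were given as a list of 5, all of them tested. Their median change at 2 h was 1.44 in WT and 1.88 in p38a-knockout arrays. Il6, Il12b, Csf2 and Csf3 rose at 2 h and at 4 h in both labels, and Lcn2 did not pass the test, at -0.15 in WT and 0.00 in p38a-knockout arrays at 2 h. At 2 h Il6 rose by 1.31 in WT and 1.00 in p38a-knockout arrays, Il12b by 1.44 and 1.88, Csf2 by 2.03 and 1.99, and Csf3 by 1.96 and 1.92. From 2 h to 4 h, the step at which Nfkbiz fell, Csf3 fell by 1.24 and 1.27, and no other gene of the list was called lower. Il6 rose by 0.25 over that step in p38a-knockout arrays (adjusted p = 0.0112). None of the 5 differed between labels at any time or over all times, where the lowest adjusted p was that of Lcn2 (-0.25 ± 0.08, adjusted p = 0.0685).

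Over the 12 arrays the members' levels were also compared with each other and with all other genes, as a description, since the 12 points are 6 groups of 2 and share their time courses. Nfkbiz correlated at a Pearson r of 0.88 with Nfkbib, 0.88 with Nfkbia and 0.84 with Bcl3, and Nfkbia at 0.86 with Nfkbie. Nfkb2 correlated at 0.83 with Nfkbib, and Relb at -0.88 with Nfkbie. Outside the members, the genes most like Nfkbiz were Ppfibp1 (0.995) and Tnfaip2 (0.993), and those most like Nfkbie were Irf8 (0.985) and Cd81 (0.979). For Nfkbia they were Cr1l and Zfp622 (both 0.966), for Nfkbib Atf5 (0.964) and Csrp1 (0.962), and for Bcl3 Mafg (0.954) and Tyw5 (0.940). For Relb they were Nr4a3 (0.962) and Vps37c (0.955), for Nfkb2 Tubb4a (0.945) and Srsf6 (0.918), for Rel Bclaf3 (0.945) and Cryaa (0.927), and for Rela Gpat3 (0.937) and Arih2 (0.919).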

How the data were processed

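The deposited intensity values are MAS5 signals per probe set on a linear scale, made by the authors, per the submitters' processing notes; MAS5's version, its scaling target and the genome build go unstated (not given in the sources used here). Arrays were quantile normalized, log2(signal + 16) was taken, and each gene was represented by its brightest probe set with a single symbol. The filter on dim genes left out those whose mean was below 4.73 on that log2 scale, which is the 40th percentile over probe sets. limma 3.58.1 in R 4.3.3 fitted 6 group means with a mean-variance trend; its two-sided p-values were adjusted by Benjamini-Hochberg over all genes tested, or over 27003 probe sets for probe-set values. The code was tested on simulated data. Differences between arrays A and B, taken over genes, correlated at -0.04 to 0.10 over 15 group pairs. In each p38a-knockout group, array B had the higher 3′ to 5′ ratio of Gapdh and of beta-actin. Whether the letters pair the groups therefore stays unknown. The members and lists were chosen with earlier results of these data known. Named were all members and probe sets, Mapk14, called markers, the IkB-zeta list, the called genes of each pathway list with the smallest p (up to 4 in each direction per comparison), and the 2 genes most like each member. Alternatives changed scaling, pseudocount (1, 64), filter (none, 60th percentile), probe-set choice, trend, block, samples fitted and thresholds, and left out each array.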

Additional observations from a re-analysis of the deposited data

How the results depend on the processing

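Of 1935 values of the members under other settings, 1805 kept their side of the threshold, 105 lost a call, 23 gained one and 2 that were called as reported turned direction. Of the 1805, 78 were uncalled both times and changed sign, 27 of them on the deposited scale, which leaves 1727 with the same direction. The 2 called values that turned were of Nfkbie on the deposited scale: -0.0273 at 2 h against 0 h in p38a-knockout arrays, and -0.0502 between labels over all times. Uncalled Rela turned at 2 h on that scale, to -0.11 in WT and -0.28 in p38a-knockout arrays, and Nfkb2 at 2 h in WT to -0.20. On that scale 1, 1 and 0 members were called in WT arrays (2 h against 0 h, 4 h against 0 h, 4 h against 2 h), 2, 1 and 0 in p38a-knockout arrays, and 0 between labels at 0, 2 and 4 h; the cause was not tested, though the arrays' trimmed means differ on it, 119 and 75.5 for the p38a-knockout 0 h arrays. Without a mean-variance trend, 14 of the 35 calls were lost, leaving 1 and 0 members for 4 h against 2 h in WT and p38a-knockout arrays, 0 between labels at each time and 2 over all times. With a log2 change of at least 1 also required, Nfkbiz alone remained: 1 member at 2 h and at 4 h in each label, and 0 elsewhere. Averaging all probe sets, or an adjusted p under 0.1, gave 2 members for 4 h against 2 h in p38a-knockout arrays, and the latter also 2 between labels at 4 h. Probe sets without _x, _s or _a suffixes, which Nfkb2, Rela and Nfkbie lack, gave 2 for 4 h against 2 h in p38a-knockout arrays, 1 between labels at 0 h and 2 over all times. Fitting only the groups compared gave 1 between labels at 0 h. Leaving out 1 array at a time, the lone array left being assumed to vary like the other groups, gave 4 to 5 members at 2 h and at 4 h in WT, 5 to 7 and 5 to 6 in p38a-knockout arrays, 1 to 2 for 4 h against 2 h in each label, 1 to 2 between labels at 0 h, 0 to 0 at 2 h, 0 to 1 at 4 h and 4 to 4 over all times. With the array letter as a replicate block, 1 call was gained (Nfkb2 at 4 h in WT, 5 members called in place of 4) and none was lost. Whether the letters pair the groups is not known. The responses of Nfkbiz at 2 h and 4 h kept their calls under every alternative run, and the difference of Rel over all times under all but the required log2 change of 1. The number of arrays, 2 per group, limits the precision.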
